A study of Caenorhabditis elegans with 8 samples.

Results

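Cuticle collagens of the col class are small secreted proteins that form most of the exoskeleton of the nematode Caenorhabditis elegans. They were examined here for regions recovered with the FLAG-tagged protein MSTR-1 in an RNA immunoprecipitation sequenced as a library (RIP-seq). The members are the protein-coding genes of the RefSeq gene table of WBcel235 whose symbol is "col-" followed by a number. This gives 156 of 19983 protein-coding genes. A member was scored as carrying a region when 1 of the 1207 deposited regions specific to the tagged strain shared at least 1 base with its span. By this rule 75 regions fell on members.

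The worms were young adults kept at 25 °C and fixed with 2% formaldehyde for 30 min, and the source was lysate of whole worms. The tagged strain, WD656, carries the on49 allele of F22D6.2, MSTR-1::3xFLAG, on chromosome I, in its own gene. N2, the wild-type strain without FLAG, was the control. RIP material and input were taken from either strain in 2 biological replicates, which makes 4 groups and 8 samples. The deposited table has 1 set of values per region and every region name carries RIP replicate 2 of the tagged strain, so no value below has a replicate error and no test between libraries could be made.

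Cuticle collagens are built from repeats of glycine followed by any pair of residues, often prolines. They are made by the epidermis (hypodermis), trimerise in the endoplasmic reticulum, are hydroxylated and trimmed, and are then crosslinked outside the cell. A new cuticle is made before each moult, and successive sets of collagen genes are switched on in waves within that cycle. Some col genes are known to be used at a particular stage. The symbol does not guarantee a place in the cuticle: col-99 encodes a transmembrane collagen. No expression level of any member was analysed here, so members that were not expressed in these worms could not be set apart from those expressed without a region. In whole-worm RNA, fewer cells of a type and less RNA per cell cannot be told apart.

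A large part of the class carried a region. Of the 156 members, 73 had at least 1 (46.8%, exact 95% binomial interval 38.8 to 54.9) and 83 had none, where 4.77% of all protein-coding genes had one. Col genes are short, with a median span of 1220 bases against 2005 for all protein-coding genes. Among the 10177 other protein-coding genes with a span between 905 and 2936 bases, the central 90% of the members' range, 3.76% carried a region. In that range 67 of 140 members did (47.9%). Spans were not matched more closely within this wide range, and a part played by gene length was not tested. The intervals cover counting error only, and neighbouring members are not independent of each other. The 3 collagen pseudogenes of the table, col-66, col-136 and col-182, had none (interval 0 to 70.8%). They are too few to set apart from the members or from all genes.

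The share stayed above that of all genes when the call was made stricter. A summit inside the gene was found in 72 members (4.70% of all protein-coding genes). A −log10 q of at least 5, where q is the false discovery rate given by the authors for the region, was reached by 61 members (2.90% of all genes). A region over no other protein-coding gene was found in 58 (4.24% of all genes), and 1 over no other annotated gene of any kind in 57 (4.02%). A fold over control of at least 2 was reached by only 15 members (9.62%, interval 5.48 to 15.4), against 2.98% of all protein-coding genes.

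Members on every chromosome carried regions, with chromosomes III and V highest and II lowest. On III, 9 of 12 members had a region (75%, 42.8 to 94.5), against 6.85% of all protein-coding genes there. On V it was 19 of 31 (61.3%, 42.2 to 78.2) against 3.48%. On IV, which holds most members, it was 19 of 41 (46.3%, 30.7 to 62.6) against 5.24%. On X it was 11 of 27 (40.7%, 22.4 to 61.2) against 4.98%. On I it was 8 of 21 (38.1%, 18.1 to 61.6) against 5.53%. On II it was 7 of 24 (29.2%, 12.6 to 51.1) against 3.83%. The intervals of neighbouring chromosomes in this order overlap widely, and II overlaps even III. Of the 9 members on III, 4 lay inside another gene, and without such shared regions the share there was 41.7%.

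**Figure D1:**
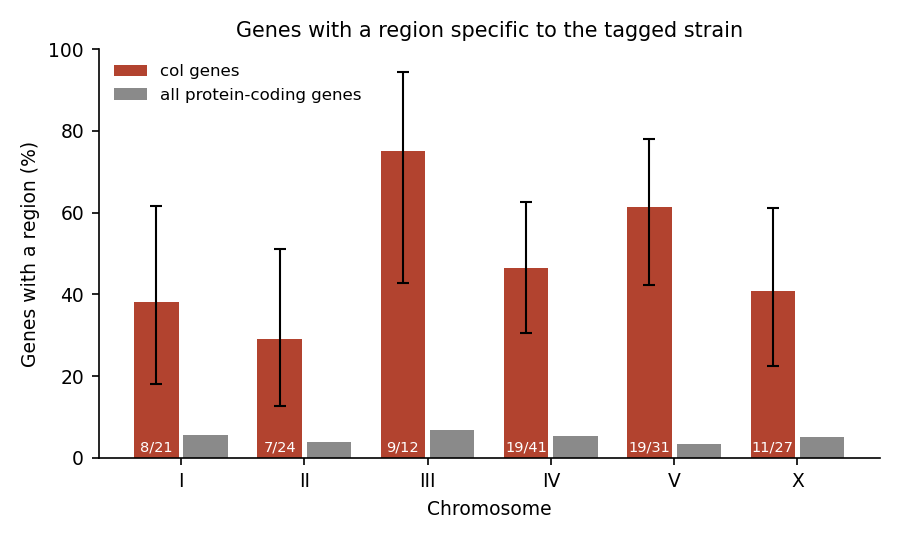
Share of genes with a region (%, y axis) on each chromosome (x axis), for col genes (red, with exact 95% binomial intervals and counts) and all protein-coding genes (grey). The red bars run from 29.2% on II to 75% on III, and the grey bars from 3.48% on V to 6.85% on III.

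The regions on members were deeply covered and modestly enriched. The fold, which is the authors' ratio of treated to control reads at a region's summit, had a median of 1.66 over the 75 regions (quartiles 1.43 and 1.91, range 1.17 to 5.16). The median of the other 1132 regions was 2.14. The control level, the background read number behind each fold, was worked back from the fold and the p-value in the list. Its median was 322 reads on members and 21.7 elsewhere. These are the background set against the reads at 1 position, the summit, and not totals over a gene. How the caller computed that background is not stated. By fold, 21 regions lay under 1.5, 38 between 1.5 and 2, and 16 at 2 or above. A fold of 3 was reached by 3. Of the other 1132 regions, 689 had a fold of at least 2 and 126 a fold of at least 3.

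Members held much of the deep end of the list. Over the whole list, 75 of 1207 regions were on members. Of the 17 regions in the list with a control level above 1000 reads, 12 were on members. Of the 25 regions with the largest −log10 q, 17 were on members, and of the 25 with the highest read number at the summit, 15. Of the 25 with the highest fold, 1 was (4%), a count too small to set apart from the whole list. Of the 100 with the highest fold, 3 were. By class of control level, members made up 0.658% of the 304 regions at the caller's floor of 13.49 reads (2 regions). They made up 1.90% of the 685 above the floor and up to 100 reads (13 regions). From 100 to 300 reads they were 17.3% of 110 (19 regions, interval 10.7 to 25.7), and above 300 reads they were 41 of 108 regions (interval 28.8% to 47.8%).

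Set beside other regions of like coverage above the control floor, the folds of members lay close to theirs. Above 300 reads the median fold was 1.57 on members (95% interval of the median 1.48 to 1.66) and 1.47 on the other 67 regions (1.36 to 1.59). From 100 to 300 reads it was 1.74 (1.40 to 2.06) against 1.61 (1.51 to 1.70) over 91. Between the floor and 100 reads it was 1.91 (1.62 to 2.91) against 2.11 (2.06 to 2.17) over 672. The intervals overlapped in all 3 of these classes. At the floor, members had only 2 regions, with a median fold of 3.07 against 2.38 over 302, too few for an interval.

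**Figure D2:**
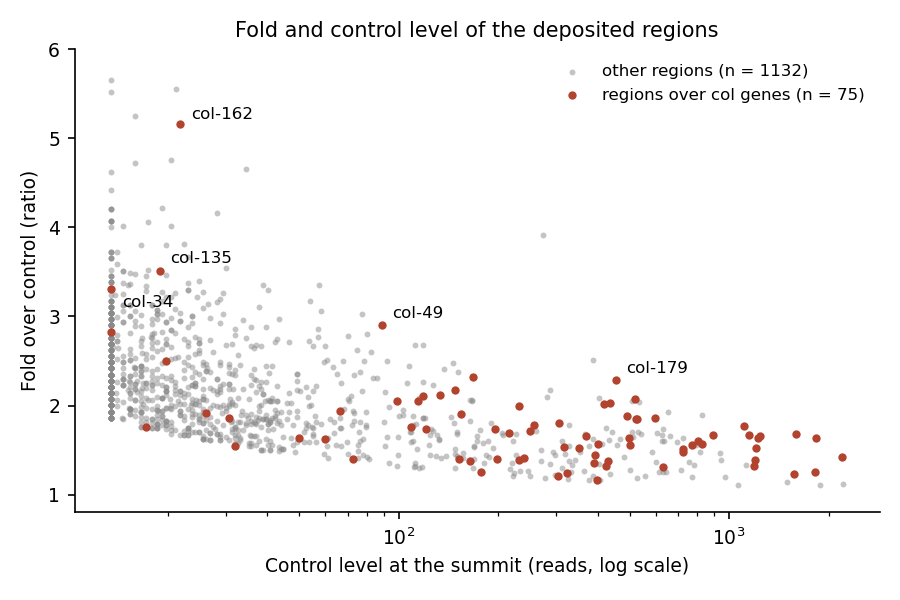
Fold over control (ratio, y axis) against the control level at the summit (reads, log scale, x axis) for the 75 regions over col genes (red) and the other 1132 regions (grey). Most red points lie at the right, with a median control level of 322 reads, and col-162 stands highest among them at a fold of 5.16.

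The member with the highest fold was col-162 (Y2H9A.3), on chromosome V at 13441961 to 13443419, and it carried 2 unlike regions. The left one, 13441977 to 13442473, had a fold of 5.16 and ranked 5th of 1207 by fold. Its summit held 117 reads (exact 95% Poisson interval 96.8 to 140) over a control level of 21.8. The right one, 13442715 to 13443303, had a fold of 2.02 from 843 reads (787 to 902) over 417. The regions were 241 bases apart and their summits 895, and the control level differed 19.1-fold between them. No other annotated gene overlapped either. In the remaining members with 2 regions, the control levels were nearly level: 1.17-fold apart in col-109 (folds 1.40 and 1.25) and 1.05-fold apart in col-159 (1.66 and 1.32). These 3 are 1.92% of members, where 1.05% of all protein-coding genes had 2 or more regions.

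A small set of members had high folds over low coverage. col-135 (M199.5, chromosome IV) had a fold of 3.51 from 69 reads (53.7 to 87.3) over 18.9. col-34 (F36A4.10, IV) had 3.31 from 47 reads (34.5 to 62.5) at the control floor, and col-76 (M110.1, II) had 2.83 from 40 reads (28.6 to 54.5), also at the floor. col-58 (F26B1.4, I) had 2.50 from 51 reads over 19.8. These 4 genes had summits of under 70 reads, where the median summit over members was 486.

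Others combined a fold above 2 with good coverage. col-49 (K09H9.3, I) led them with 2.91, from 261 reads (230 to 295) over 89.1 and a −log10 q of 47.0. col-147 (T06E4.4, V) had 2.32 from 391 reads over 168, and col-179 (C34F6.3, X) had 2.29 from 1041 reads (979 to 1106) over 454. col-48 (Y54E10BL.2, I) had 2.17, in a region that also lies in mek-2, the gene of a MAP kinase kinase. col-62 (C15A11.6, I) had 2.11, col-168 (T10E10.1, X) 2.10, col-133 (F52B11.4, IV) 2.07, col-7 (C15A11.5, I) 2.06, col-155 (F55C10.3, V) 2.05 and col-12 (F15H10.1, V) 2.03. Of these, col-133 had the deepest summit, with 1081 reads over 521 and a −log10 q of 99.3.

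The 5 largest −log10 q values among members included those of col-179 and col-133, and the rest came from members with folds under 2. col-94 (W05B2.1, III) had 135.5, from 2999 reads over 1829 and a fold of 1.64, which placed it 2nd of 1207 regions by q. It was followed by col-139 (F41F3.4, V) with 131.1 (2679 reads over 1599, fold 1.67) and by col-179 with 120.1. col-92 had 116.3 (fold 1.77), and col-133 came next with the 99.3 given above. The deepest summits after col-93, with 3128 reads over 2200, were those of col-94, col-139, col-122 (2286 reads over 1825, fold 1.25) and col-159 (2068 over 1245, fold 1.66). At the other end, 5 regions had a −log10 q under 2: those of col-41 (1.32), col-85 (1.39), col-95, col-138 and the right-hand region of col-109. The lowest value in the whole list was 1.305.

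Some members used at known stages carried a region and others did not. Of 4 col genes used in the adult cuticle, 2 had a region (50%, 6.76 to 93.2), an interval that holds the 46.8% of all members. These were the neighbours col-7 and col-62. Their folds were 2.06, from 236 reads (207 to 268) over 114, and 2.11, from 283 reads (251 to 318) over 133. col-19, widely used as a marker of the adult stage, and col-119 had none. col-2, a collagen of the dauer larva, had none either.

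Members that sit next to each other often carried regions together. With spans at most 10 kb apart counted as 1 cluster, 50 members formed 21 clusters and 106 stood alone. Of the clustered members 30 had a region (60%, 45.2 to 73.6), and of the lone ones 43 (40.6%, 31.1 to 50.5). The intervals overlap. In 9 clusters every member had a region, in 7 none had, and 5 were mixed. The 9 include the pair col-159 and col-160, whose spans overlap. The only region of col-160 is counted for col-159 too. Clustered collagen genes can be alike in sequence, and no sequence was used here. The treatment of reads that fit several genes is not stated in any label, so the calls of neighbours may not be independent.

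The clusters of 3 or more show this in detail. On III, col-92, col-93 and col-94 lie within 5735 bases and had folds of 1.77, 1.42 and 1.64 over control levels of 1111, 2200 and 1829 reads. On V, col-144, col-145 and col-10 lie within 5722 bases and had 1.53, 1.25 and 1.60 over 350, 322 and 808. On X, col-167 to col-171 span 11734 bases in a row of near-equal genes of 903 to 924 bases. There col-167 had 1.57, col-168 2.10, col-169 1.76 and col-170 1.44, over 402, 118.7, 109 and 393 reads, and col-171 had no region. Close by, col-166, of 906 bases like col-167 and col-168, had 1.78 over 257 reads.

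In the remaining clusters of 3 some or all members lacked a region. On II, col-39 (1.65 over 369 reads) and col-80 (1.39 over 1196) had one and the adjacent col-79 had none. On V, col-142 (1.40 over 198) and col-143 (1.64 over 497) had one and col-141 did not. On II, none of col-17, col-20 and col-73 had a region. Among pairs, col-117 had a region (1.23 over 1570 reads) and its neighbour col-3 none, and col-184 had one (1.51 over 724) and col-183 none. col-12 and col-13, known as a closely related pair, had 2.03 over 436 reads and 1.67 over 896.

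**Figure D3:**
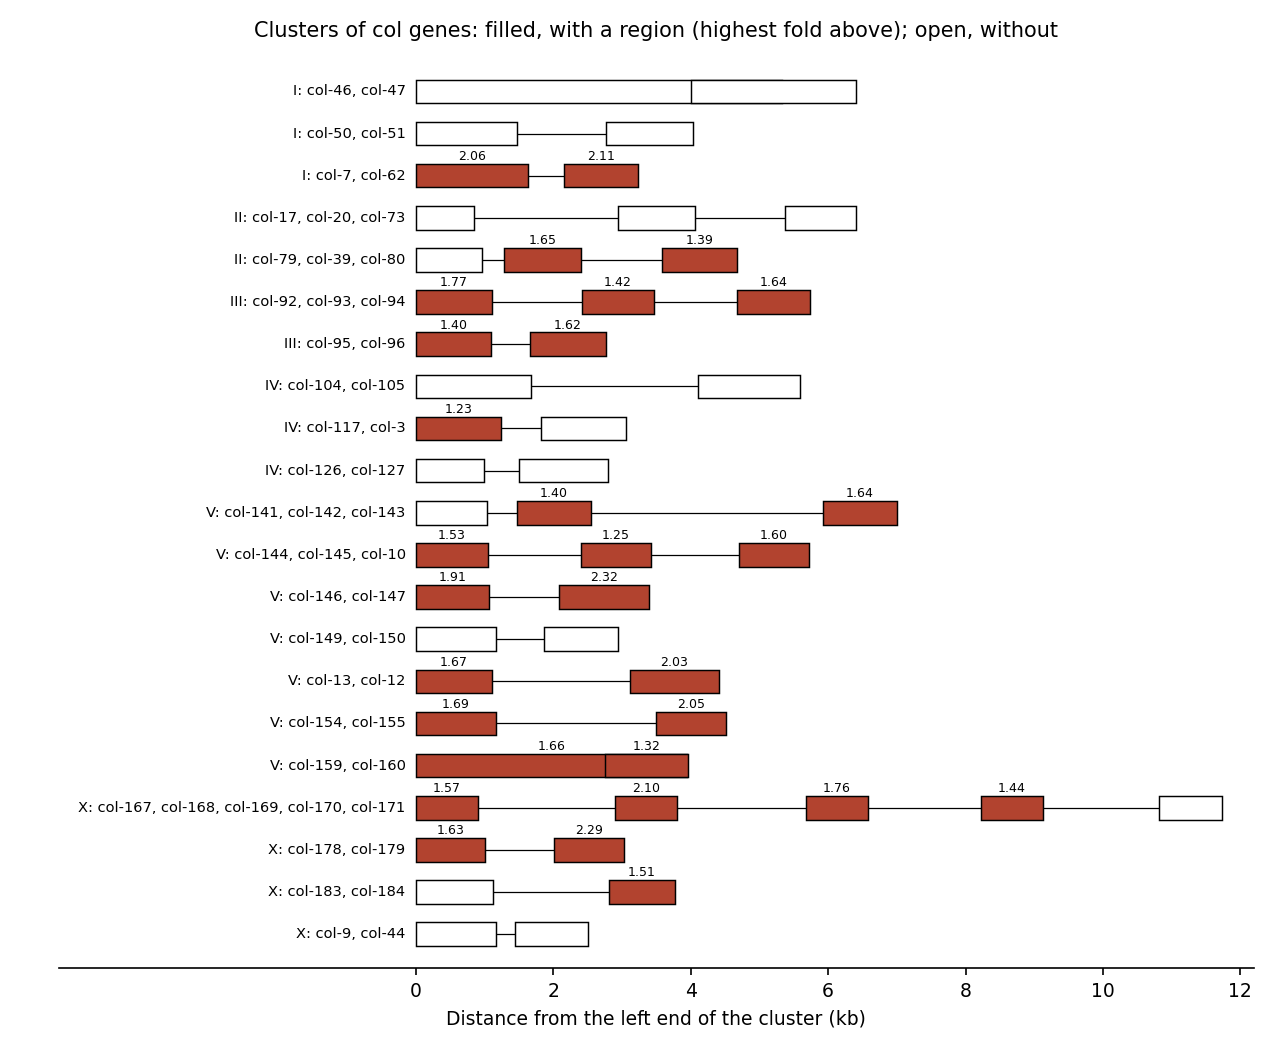
Clusters of col genes drawn to scale from the left end of each cluster (kb, x axis), with members as boxes, filled where they carry a region and open where they do not, and the highest fold of each written above. The cluster of col-167 to col-171 is the longest, at 11734 bases, and its last member is open.

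Several members lie inside another gene. Of 22 members inside the span of another protein-coding gene, 14 had a region (63.6%, 40.7 to 82.8), an interval that holds the 46.8% of all members. Members that overlapped another protein-coding gene in any way had a region in 26 of 55 cases (47.3%), and those that overlapped none in 47 of 101 (46.5%). The 22 lie inside 18 genes, of which 11 carried a region, and 0 of the 18 carried a region away from a member. Of all protein-coding genes 4.77% carried any region, and 18 genes are too few to set 0 apart from that share. Apart from 1 region over both col-159 and col-160, whose spans overlap, 14 regions fell inside a gene that is no member. These genes are 11 in number, with spans of 4242 to 21973 bases. They were chosen by these regions, so their counts are a description. dhc-4, of a dynein heavy chain, had 3 regions, those of col-92, col-93 and col-94. dph-2, of diphthamide synthesis, had 2, those of col-39 and col-80. The others had 1 each: mek-2 (with col-48), ncr-2, a Niemann-Pick C1 relative (col-91, 1.72), the kinase gene drl-1 (col-101, 1.80), C34H4.5 (col-107, 1.48), C46A5.4 (col-14, 1.32), lron-14 (col-122), the glucuronosyltransferase gene ugt-65 (col-130, 1.99), C52D10.3 (col-138, 1.17) and ucr-2.2 (col-41, 1.55). In 13 of these 14 regions the summit was inside the member. col-41 was the exception: its region was 3874 bases wide and ran over most of ucr-2.2, a gene of a mitochondrial respiratory chain protein, with the summit outside col-41. Strand is given neither for regions nor for genes, so reads of host and collagen cannot be separated by strand. The region of col-71 (1.89) covers an annotated non-coding RNA gene inside col-71, Y49F6B.15, and its summit lies outside that gene.

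Nearly all regions lay inside the gene span, and most summits lay away from its ends. Not every region covered the middle of the gene: that of col-92 began 71 bases from the left end and stopped 656 bases before the right. Some came close to an end, such as the right region of col-109 (5 bases) and that of col-42 (8 bases). Of 76 pairs of member and region, 74 regions lay wholly inside the span and 75 summits did. A region covered a median of 60.3% of the span (quartiles 44.7 and 73.1), and at most 90.6% among those wholly inside. The median gap between the region and the nearer end of the gene was 110.5 bases. Of the 75 summits inside, 68 lay between 20% and 80% of the span. The 7 nearer to an end were 9.33%. For other protein-coding genes of the same span range, 155 of 444 summits (34.9%) lay within 20% of an end, against 4 of 68 (5.88%) for the members in that range. The same other genes had a median coverage of 35.3% of the span, where the 60.3% above is over all 76 pairs. Spans were not matched within the range, and members with a region had a median span of 1114 bases. Median region widths were 698 bases on members and 635.5 for all other regions. A region of like width fills more of a shorter gene, and what this adds to the differences was not tested. As a share of the span, the inside summits nearest to an end were those of col-76 and of the left regions of col-159 and col-162. Without strand, 5′ and 3′ ends cannot be named, and exons were not in the gene table.

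**Figure D4:**
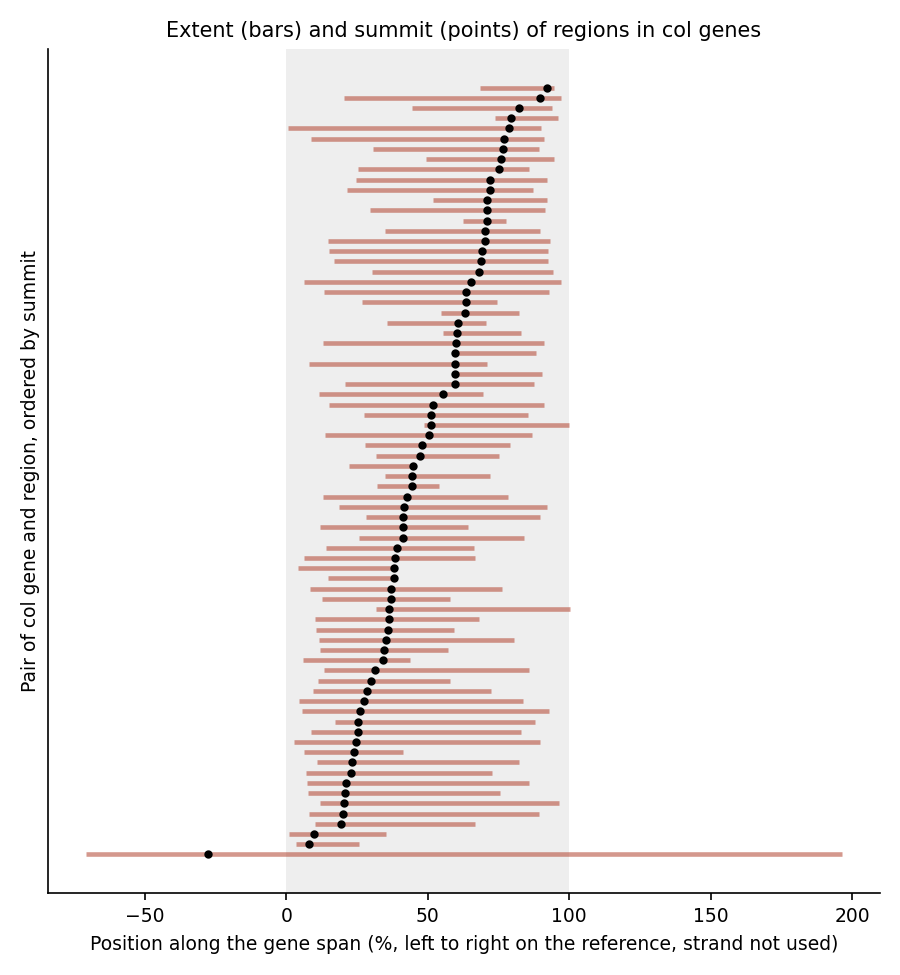
Extent (bars) and summit (points) of each of 76 pairs of col gene and region along the gene span (%, x axis, left to right on the reference), ordered by summit (y axis). 75 summits lie inside the shaded span, and the long bar at the bottom is the region over col-41 and ucr-2.2.

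Members with a region had the smaller median span. It was 1114 bases (quartiles 1016 and 1303, n = 73), against 1329 (1118.5 and 1838.5, n = 83) for those without, and the ranges overlapped. The longest member, col-99 with 9946 bases and 17 annotated transcripts, had none.

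The numbers in the region names show where the list has gaps. Numbers run to 1464 and follow position along every chromosome, and 257 of them (17.6%) are not in the list. For 45 of the 83 members without a region, the nearest listed regions on either side have consecutive numbers, so no number is missing around them. Among these were col-2, col-3, col-79, col-171 and col-183. For 37 members, at least 1 number is missing somewhere between the flanking regions, which include col-19, col-119, col-141 and the cluster of col-17, col-20 and col-73. col-99 has no listed region on one side. Whether a missing number belonged to the member itself cannot be read from the list. The same count was not made for other genes without a region, so the split cannot be read as a trait of members.

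Other genes of collagen biology also carried regions. The share was 4.77% for all protein-coding genes and 46.8% for the col class. Of 21 collagens named for body shape mutants, 6 had a region (28.6%, 11.3 to 52.2), an interval that holds the 46.8%. These were dpy-13 (2.03, from 1084 reads over 532), dpy-5 (1.70), bli-6 (1.68) and rol-1 (1.67), with lon-3 and dpy-4 in regions shared with ogdh-2 and atln-2. The regions of lon-3 and dpy-4 had a −log10 q of only 1.89 and 1.52. Of 14 genes of collagen modification and crosslinking, 5 had one (35.7%, 12.8 to 64.9), against the same 4.77%. This interval holds the 46.8% too. phy-2, which encodes a prolyl 4-hydroxylase subunit, had 3 regions with folds of 3.73, 3.13 and 3.11, from 53, 58 and 44 reads at or near the control floor. mlt-7, a peroxidase gene of crosslinking, had 1.93, dpy-18, a further prolyl 4-hydroxylase subunit, 1.90, and bli-4, a proprotein convertase, 1.70. Their regions held 27, 30 and 42 reads, with −log10 q values of 1.75, 1.86 and 1.75, not far above the lowest in the list. pdi-2, the disulphide isomerase partner of the hydroxylase, had 2 regions, at 1.26 and 1.23 (−log10 q 3.80 and 3.91). Among these 5 genes only phy-2 reached the −log10 q of 5 used for members above. Of the basement membrane collagens emb-9 and let-2 had a region (folds 1.87 and 1.49, −log10 q 3.20 and 2.93) and cle-1 had none.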

How the data were processed

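The data were 1 deposited list of regions without a header, made by the authors. STAR and deepTools are named in the submitters' processing notes without a version. Which caller, control library and genome build were used, and how strain-specific regions were chosen, is not stated there. The first 10 columns have the narrowPeak layout of MACS2: the deposited values are a score (10 times the −log10 q rounded down), a fold (a ratio of treatment over control), the −log10 of the p-value and of the q-value, and the offset of the summit. Each was the authors' own value for the region. Starts, counted from 0 in the file, are given 1-based. An 11th column has no label.

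Pileup and control were solved from the deposited fold, taken as (pileup + 1) / (control + 1), and the Poisson p-value. Of the 1207 solved pileups 1166 lay within 0.02 of a whole number, and all 1061 below 300 reads did. The solver was tested on made-up regions with the same formulas. That the caller used these formulas is an assumption. Library depths were not in the file.

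Genes came from the RefSeq gene table of WBcel235 (46926 genes), without strand, exons or sequences, so no sequence is shown. The planned comparison of protein likeness and the interaction of RIP over input between strains were not run, and no statistical test is given: shares have exact binomial intervals, medians order-statistic intervals and read numbers exact Poisson intervals. Members, lists and rules were chosen with earlier results of these data known. Named members were the 12 highest folds, the 5 largest −log10 q, the 5 deepest summits, those with 2 regions, those in shared regions or in clusters of 3 or more, stage-specific members, and up to 4 of each further list. Others complete a group and were named after their values were seen, as were the shares by span, numbering and host genes. Computations ran in Python 3.11.15 with pandas 2.3.3, numpy 2.4.6 and scipy 1.17.1, and plots in matplotlib 3.10.9.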

Additional observations from a re-analysis of the deposited data

Results flagged for a closer look

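The unlabelled 11th column of the deposited list was used in no comparison above. It was above 0 in 50 of the 75 regions on col genes (66.7%, exact 95% binomial interval 54.8 to 77.1) and in 249 of the other 1132 (22.0%, 19.6 to 24.5). The value 2 was too rare to compare: 12 of the other 1132 regions had it and none of the 75 on col genes. The number was more often above 0 at control levels over 100 reads than below, without a steady rise on members. Above a control level of 300 reads it was above 0 in 73.2% of regions on members and 71.6% of others. From 100 to 300 reads the shares were 89.5% and 63.7%, and between the floor and 100 reads 23.1% and 20.1%. At the control floor the number was above 0 in 0 of 2 regions on members and 2.65% of others. What the column counts is not stated, and its part in the results was not tested.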

How the results depend on the processing

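Keeping regions with a fold of at least 2, which removes deeply covered regions of low fold by construction, left 15 members with a region and a median fold of 2.23. It left 23.8% of members on I (5 in place of 8), 4.17% on II, 0% on III (0 of 12), 7.32% on IV, 12.9% on V and 7.41% on X. Leaving out regions over another protein-coding gene, or over any other gene, lowered the share on III to 41.7% in either case. The latter lowered that on II from 29.2% to 16.7% (4 members in place of 7), and the former to 20.8% (5 members). The median distance from the summit to the nearer gene end was 33.0% of the span, and that of the region midpoint was 41.3%. With control classes cut at 50 and 200 reads, members were 10.2% of the middle class in place of 17.3%. The other alternatives (summit or at least 50% of the region inside the gene, −log10 q of at least 5, cluster gaps of 5 and 20 kb) moved no count of members by over 1.5 times and no share or median outside its interval. No paired analysis was possible because values per library are not in the list used here, nor could a replicate be omitted.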
